A study of Mus musculus with 26 samples.

Results

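The change in gene expression that goes with the Fbn1 C1041G allele in the descending aorta was described by comparing 4 libraries from heterozygous C1041G/+ mice with 4 libraries from wild-type littermates, 8 of the 26 libraries of the series. All 8 came from the descending segment of male mice given no antisense oligonucleotide, and they were chosen by those labels alone. The wild-type libraries carry the numbers 1, 3, 5 and 7 and the C1041G/+ libraries the numbers 2, 4, 6 and 8, and values below follow that order. RNA of the whole tissue was sequenced, and 8 ascending libraries of the same genotypes shared the statistical fit. The labels used here give no age and do not say that each library came from a different mouse, so the p-values measure the spread between libraries, which may be technical. The mutant mice keep 1 wild-type Fbn1 allele in every cell. In bulk tissue fewer cells of a type and less RNA per cell cannot be told apart.

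Fibrillin-1, the product of Fbn1, assembles into microfibrils that surround elastin in the aortic wall and that bind latent forms of TGF-beta and BMP growth factors. The mutation replaces a cysteine in an EGF-like repeat, and mice that carry it are used as a model of Marfan syndrome, in which the aorta dilates mainly at the root and the ascending segment. The wall of the descending aorta holds smooth muscle cells in the media, an endothelium on the inner side, and fibroblasts, macrophages, nerves and fat on the outer side.

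The wild-type libraries held 17171652 to 19717144 counts and the C1041G/+ libraries 17678343 to 20777613. Levels are given below as CPM, counts scaled to a common library size, after scaling by the trimmed mean of M-values (TMM). Smooth muscle transcripts were abundant in every library. Acta2, smooth muscle actin, had 12670.1, 12799, 13802 and 11443 CPM in wild type and 14386, 15033, 11789 and 12863 CPM in C1041G/+, and Myh11, the smooth muscle myosin heavy chain, 5499 ± 734 and 5503 ± 621 CPM (SD, n = 4 each). Neither gene was called, and for both the groups overlapped. Hoxa7, a gene of the posterior body axis, had 36.4 ± 3.53 and 36.7 ± 5.098 CPM in the descending groups against means of 0.309 and 0.168 CPM in the ascending ones, a difference of the kind that the segment labels describe. The share of counts from mitochondrial genes was 3.45% to 3.92% in wild type and 2.86% to 3.31% in C1041G/+, without overlap, and its part in the results was not tested.

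Of 15645 genes tested with edgeR's quasi-likelihood test, 189 (1.21%) differed between the genotypes at an adjusted p under 0.05, and such genes are said to be called. Higher levels in C1041G/+ were called for 106 genes (0.678%) and lower levels for 83 (0.531%). At least 2-fold differences made up 95 of the calls (0.607% of the genes tested), 51 higher and 44 lower. The 4 mutant and 4 wild-type values did not overlap for 186 of the 189 called genes, against 1141 genes (7.29%) among all tested. Almost every called gene was thus without overlap, and where this is stated below it describes the values and adds no test. The median log2 fold change over all tested genes was -0.00018. For 48 of the 189 an exon of a gene on the other strand overlaps, and since the strand setting of the counting is not given, reads of such partners cannot be told apart. Those described below include Kcnj15, Mfap4, Gcnt4, Galnt6, Casq1, Dsp, Fst, Notch3, Ptgfr, Pdgfc, Fn1, Des, Tnr and Ace. Without library 6 the number of genes called higher was 68.

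**Figure D1:**
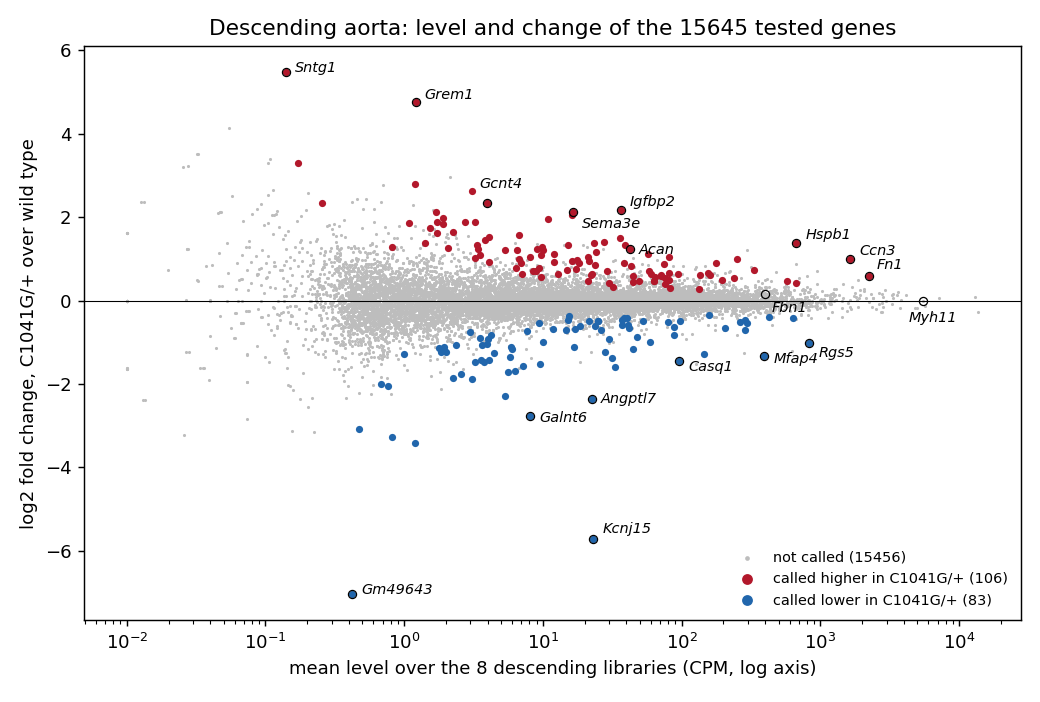
Each point is 1 of the 15645 tested genes, placed by its mean level over the 8 descending libraries (CPM, log axis) and its log2 fold change in C1041G/+ over wild type, with called genes in red (106 higher) and blue (83 lower). Kcnj15, at -5.71, lies far below the other genes of its level, while Fbn1 and Myh11 lie near 0; Gm49643 and Sntg1 have no count in 1 of the groups, so their fitted positions are not bounds.

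The mutated gene itself was not called. Fbn1 had 432, 312, 392 and 373 CPM in wild type and 391, 352, 507 and 423 CPM in C1041G/+. The groups overlapped (log2 fold change 0.15 ± 0.15 SE, adjusted p = 0.805), and since the allele changes 1 codon, the gene's count does not check the genotype labels. Fbn2, the related fibrillin of development, had a count in wild-type library 3 alone, at 0.0508 CPM.

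Among genes that reached 1 CPM in either group, the largest called fall was in Kcnj15, which encodes an inward rectifier potassium channel. Channels of this family pass potassium near the resting potential and help to set it. Kcnj15 had 50.2, 39.1, 61.2 and 30.4 CPM in wild type and 1.01, 0.850, 0.747 and 0.828 CPM in C1041G/+. Every mutant library was far below every wild-type library, and the mutant values lay close together. The fall was 52.3-fold (log2 fold change -5.71 ± 0.22 SE, adjusted p = 7.9e-11). In the ascending segment the level went from 180.4 to 53.95 CPM, a log2 fold change of -1.74 (adjusted p = 8.9e-06). The difference between the segments' changes was -3.97 on the log2 scale (adjusted p = 8.2e-07), and Kcnj15 was the 1 gene of all tested (0.00639%) for which this interaction passed in edgeR. DESeq2 passed 38 genes for the interaction. With the replicate number as a block, limma voom gave Kcnj15 an interaction of -3.89 at a larger adjusted p of 0.00199. Of the 8 other tested genes of the inward rectifier list, which takes in the partner subunit gene Abcc9, none was called. Kcnj8 had 65.6 ± 10.9 and 60.97 ± 15.95 CPM (SD, n = 4), with overlapping groups.

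Kcnj15 lies on the plus strand of chromosome 16 at 95257558 to 95300260 (GENCODE M21, GRCm38). The antisense model Gm49643, at 95297356 to 95301661, overlaps its end and had 62 counts over the wild-type libraries and 0 over the mutant ones. With the mutant group set to a floor of 3 counts in all, it was at least 20.8-fold lower in C1041G/+. A longer antisense model that spans the gene, Gm31641, fell from 0.847 ± 0.320 to 0.0951 ± 0.0964 CPM (SD, n = 4), a log2 fold change of -3.09 (adjusted p = 0.00357). Without a stated strand, how many of the reads of both models are those of Kcnj15 was not tested. Within 1 Mb the other called gene was Sh3bgr, chosen after its values were seen, which fell from 483 ± 14.01 to 367 ± 28.8 CPM (adjusted p = 0.0358), and the call was lost without any 1 library but library 4 (adjusted p up to 0.126). Erg, the nearest tested coding gene, had 148 ± 21.5 and 114 ± 19.7 CPM with overlapping groups (adjusted p = 0.211). The 250 bases before the RefSeq start of Kcnj15 are shown because of the size of its fall (GRCm38.p6, plus strand, chr16:95257308-95257557). None of the 7 motifs counted over all promoters occurs in them.
Kcnj15: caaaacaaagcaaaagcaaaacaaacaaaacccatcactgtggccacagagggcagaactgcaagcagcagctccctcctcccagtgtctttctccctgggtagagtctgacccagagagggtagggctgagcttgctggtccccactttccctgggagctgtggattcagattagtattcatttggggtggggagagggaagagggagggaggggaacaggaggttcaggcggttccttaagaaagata

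Secreted antagonists of BMPs and activins bind these growth factors outside the cell. Of 15 tested, 3 rose and none fell, with a median log2 fold change of 0.22. The calls made up 20% of the list, beside 1.21% of all tested genes. The same 1.21% is the background for each list below. The lists and their members were chosen with earlier results of these data known. A share above the background is therefore partly built in and is not a test of a list. Grem1, gremlin, had 0, 0.0508, 0.117 and 0.158 CPM in wild type and 1.63, 1.36, 3.79 and 2.58 CPM in C1041G/+. It was barely detected in wild type and present in all 4 mutant libraries (log2 fold change 4.75 ± 0.73 SE, adjusted p = 0.00129). Chrdl1, a chordin-like BMP antagonist, had 42.5, 37.5, 26.5 and 38.5 CPM in wild type and 71.8, 70.9, 88.6 and 83.5 CPM in C1041G/+. All mutant values exceeded all wild-type values (log2 fold change 1.12 ± 0.13 SE, adjusted p = 9e-05). Fst, follistatin, which binds activins, rose from 7.61 ± 1.63 to 16.6 ± 3.64 CPM (SD, n = 4) without overlap (adjusted p = 0.00064).

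Of 40 ligands, receptors and SMADs of the BMP and TGF-beta pathways, none rose and 1 fell (2.5% called). The fall was in Bmpr1b, a type I BMP receptor, which went from 61.2 ± 14.7 to 27.3 ± 9.36 CPM (SD, n = 4), a log2 fold change of -1.16 (adjusted p = 0.0164). It was no longer called without library 3, 4, 6 or 8 (adjusted p up to 0.0639). The ligands Tgfb1, Tgfb2 and Tgfb3 were not called: they had 40.5 ± 5.33 and 42.2 ± 3.301 CPM, 65.7 ± 6.55 and 90.1 ± 22.2 CPM, and 206 ± 23.7 and 254 ± 32.3 CPM, with adjusted p of 0.906, 0.374 and 0.282. Ltbp4, which tethers latent TGF-beta to microfibrils, had 1685 ± 80.8 and 1409 ± 106 CPM and was not called (adjusted p = 0.239). Among 26 TGF-beta target genes 1 was called, Fn1 (median 0.10), and among 12 BMP target genes 1, Grem1 (median 0.02). Id3, a BMP target, had 258 ± 41.8 and 259 ± 27.2 CPM.

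**Figure D2:**
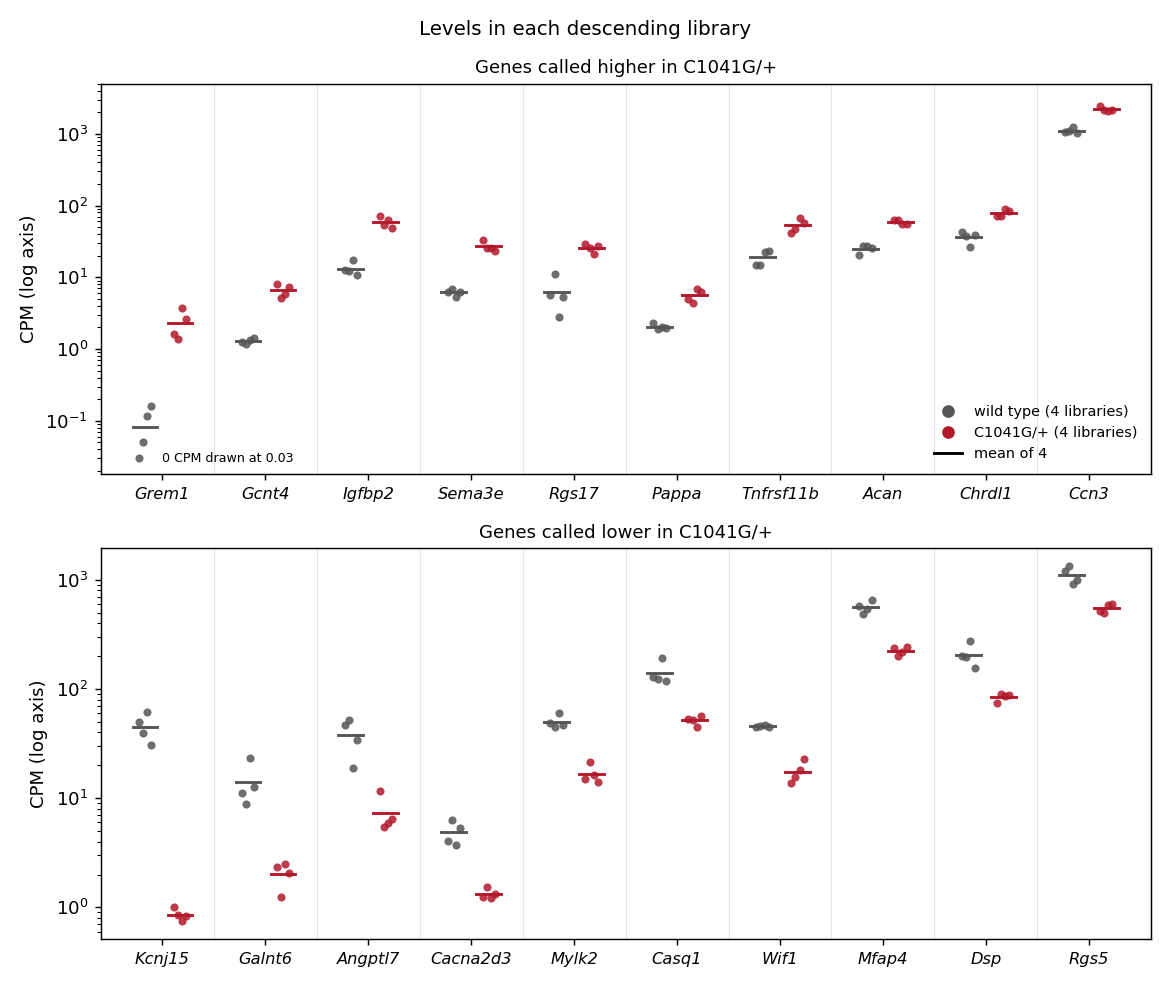
CPM (log axis) of 10 genes called higher and 10 called lower, with 1 point for each of the 4 wild-type (grey) and 4 C1041G/+ (red) descending libraries and a line at each mean. The points of the genotypes do not overlap for any of these genes. Most of them were chosen with that as a condition, so it is not a result about them. The widest gap in the lower panel is that of Kcnj15.

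Elastic fibre and microfibril genes held 2 falls and no rise among 32 tested (6.25% called), with a median of -0.03. Mfap4, a microfibril-associated glycoprotein, had 581, 490.4, 538 and 645 CPM in wild type and 236, 199.8, 219.6 and 241 CPM in C1041G/+. The lowest wild-type value was well above the highest mutant value (log2 fold change -1.33 ± 0.11 SE, adjusted p = 2e-06). Mfap5, which binds fibrillin, fell from 348 ± 45.6 to 240.2 ± 22.9 CPM (SD, n = 4), a log2 fold change of -0.53 (adjusted p = 0.0120). Eln, elastin, varied widely, at 7592, 4734, 8400.5 and 4504 CPM in wild type and 5129, 5441, 4007 and 3860.3 CPM in C1041G/+, and its groups overlapped (adjusted p = 0.496).

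None of 37 collagens, 53 matrix proteases and inhibitors, or 35 integrin, laminin and basement membrane genes was called, with medians of 0.08, 0.12 and -0.02. In the same order, 20, 36 and 17 genes were higher. The mean log2 CPM of the protease list ran from 4.61 to 4.79 in wild type and from 4.82 to 4.96 in C1041G/+. For the collagens and the integrin group it overlapped between the genotypes. The lists as wholes were not tested. Col3a1 had 3431 ± 756 and 3758 ± 383 CPM, Col1a2 2969 ± 772 and 2932 ± 558 CPM, and the protease inhibitor Timp2 1285 ± 64.7 and 1296 ± 59.8 CPM (SD, n = 4). Proteoglycan and hyaluronan genes held 3 rises and no fall among 35 (8.57% called), with a median of 0.01. Acan encodes aggrecan, a large chondroitin sulphate proteoglycan of cartilage that is also laid down in the aortic wall. It had 20.5, 27.6, 26.98 and 25.5 CPM in wild type and 63.8, 62.5, 55.3 and 55.9 CPM in C1041G/+. Both sets of values were tight and lay far apart (log2 fold change 1.24 ± 0.09 SE, adjusted p = 4.9e-07). Esm1, the endothelial proteoglycan endocan, rose from 3.41 ± 1.82 to 10.1 ± 2.24 CPM (adjusted p = 0.0140), and its call was lost without library 3 (adjusted p 0.0529). Cd44, the hyaluronan receptor, rose from 56.9 ± 6.09 to 85.4 ± 6.03 CPM (adjusted p = 0.0401), a call lost without any 1 of the 8 libraries (adjusted p up to 0.128). The abundant small proteoglycans Bgn (3804 ± 108 and 3834 ± 155 CPM) and Dcn (1623 ± 491 and 1644 ± 260.2 CPM) were not called. The promoter of Acan is shown as that of the matrix gene with the smallest adjusted p (GRCm38.p6, plus strand, chr7:79052976-79053225), with capitals on CATTCC, the core bound by TEAD factors, 12 bases before the start.
Acan: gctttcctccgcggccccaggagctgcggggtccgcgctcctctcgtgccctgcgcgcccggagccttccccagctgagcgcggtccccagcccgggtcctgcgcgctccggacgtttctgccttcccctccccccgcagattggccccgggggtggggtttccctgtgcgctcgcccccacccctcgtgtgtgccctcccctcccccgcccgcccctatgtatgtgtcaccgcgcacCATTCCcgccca

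Matricellular proteins signal from the matrix without building it. Their list also takes in fibronectin, which does build fibres. It held 4 rises and 1 fall among 31 tested (16.1% called), with a median of 0.10. Ccn3, a secreted modulator of cell growth and adhesion, had 1053, 1095, 1237 and 1018 CPM in wild type and 2426, 2158, 2049 and 2155 CPM in C1041G/+, without overlap (log2 fold change 1.00 ± 0.08 SE, adjusted p = 2e-06). Ccn4, of the same family, rose from 8.65 ± 1.55 to 21.8 ± 3.76 CPM (SD, n = 4; adjusted p = 0.00106). Fn1, fibronectin, had 2007, 1632, 2069 and 1441 CPM in wild type and 2587, 2341, 2972 and 2891 CPM in C1041G/+. Its groups did not overlap (log2 fold change 0.59 ± 0.12 SE, adjusted p = 0.0194), and the call was lost without library 3, 6, 7 or 8 (adjusted p up to 0.0752). Tnr, tenascin-R, rose from 0.702 ± 0.186 to 2.36 ± 0.781 CPM (adjusted p = 0.0339), a call lost without any 1 library but library 6 (adjusted p up to 0.109). The fall was in Ccn5, which restrains smooth muscle growth, from 254 ± 32.3 to 160.1 ± 24.8 CPM (adjusted p = 0.0463), and it was lost without library 1, 2, 3, 6, 7 or 8 (adjusted p up to 0.146) and with the replicate number as a block (adjusted p = 0.0718, limma voom).

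The contractile genes of smooth muscle held 1 rise and 1 fall among 41 (4.88% called), with a median of 0.09. Hspb1, a small heat shock protein that binds actin, had 317, 479, 299 and 399 CPM in wild type and 1261, 1119, 629.7 and 879 CPM in C1041G/+. All mutant values were higher, with a wide spread among themselves (log2 fold change 1.38 ± 0.25 SE, adjusted p = 0.00858). It was also the 1 gene called of 37 immediate early and heat shock genes (median 0.22). Des, desmin, the intermediate filament of muscle, fell from 94.5 ± 20.99 to 65.7 ± 7.93 CPM (SD, n = 4; adjusted p = 0.0352), and the call was lost without library 5, 6, 7 or 8 (adjusted p up to 0.126).

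A few of the largest falls were in genes also known from muscle, and these were not a list of their own. They were gathered from the falls after the values were seen, and other called genes known from muscle rose, Fhl2 below among them. Mylk2, the skeletal muscle form of myosin light chain kinase, had 48.3, 44.6, 60.1 and 47.1 CPM in wild type and 15.01, 21.4, 16.2 and 13.98 CPM in C1041G/+. Casq1, a calcium-binding protein of the sarcoplasmic reticulum, had 128, 123, 191 and 118 CPM in wild type and 52.7, 52.3, 44.7 and 56.6 CPM in C1041G/+. The groups overlapped for neither gene, with log2 fold changes of -1.59 and -1.44 (adjusted p = 3.4e-05 and 0.00018). Tnnt1, slow skeletal troponin T, fell from 5.55 ± 0.403 to 1.99 ± 0.675 CPM (SD, n = 4; adjusted p = 0.00064). Dsp, the desmosome protein desmoplakin, fell from 206 ± 48.8 to 84.4 ± 6.51 CPM (adjusted p = 0.0005). The 7 tested markers of skeletal muscle were all lower and none was called (median -0.98), and their mean log2 CPM ran from -0.77 to 1.51 in wild type and from -1.03 to -0.09 in C1041G/+. Ckm, muscle creatine kinase, had 2.93 ± 0.773 and 1.48 ± 0.628 CPM. Of 12 tested markers of heart muscle, 7 were higher and 5 lower, none called (median 0.38), and their mean log2 CPM ran from -0.56 to -0.05 in wild type and from -0.67 to -0.01 in C1041G/+. The part of other muscle in these falls was not tested.

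Fhl2, a LIM-domain cofactor of muscle, moved the other way, from 11.97, 12.7, 11.5 and 15.7 CPM in wild type to 34.4, 38.03, 33.6 and 28.9 CPM in C1041G/+. Every mutant value was higher (log2 fold change 1.38 ± 0.25 SE, adjusted p = 0.00858). The first of its 2 RefSeq promoters is shown (GRCm38.p6, minus strand, chr1:43196762-43197011). Both hold a CArG box, the element bound by serum response factor in muscle genes, and in the second (chr1:43163962-43164211) it lies 31 bases before the start. Capitals mark the box of the first promoter, 96 bases before the start, and a TATAAA read from the other strand, 28 bases before it.
Fhl2: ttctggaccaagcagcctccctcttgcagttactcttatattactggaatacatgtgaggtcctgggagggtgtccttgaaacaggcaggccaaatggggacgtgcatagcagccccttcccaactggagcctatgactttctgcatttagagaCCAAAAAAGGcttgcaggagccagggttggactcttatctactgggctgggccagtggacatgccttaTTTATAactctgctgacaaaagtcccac

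Genes that mark modulated smooth muscle cells, which have moved away from the contractile state, held 5 rises and 1 fall among 30 (20% called). Their median was 0.25. Acan, Fn1 and Igfbp2 are members and are described with their own groups. Tnfrsf11b, osteoprotegerin, the decoy receptor for RANKL, had 14.96, 14.9, 22.6 and 23.3 CPM in wild type and 42.1, 47.7, 66.3 and 56.7 CPM in C1041G/+. No values overlapped (log2 fold change 1.49 ± 0.20 SE, adjusted p = 0.00081). Lgals3, galectin, rose from 16.8 ± 2.12 to 30.4 ± 2.02 CPM (SD, n = 4; adjusted p = 0.0170), a call lost without library 2, 3 or 7 (adjusted p up to 0.0652). The fall was in Rgs5, which switches off G protein signals in mural cells, with 1192, 1331, 923 and 989 CPM in wild type and 522, 494, 581 and 604 CPM in C1041G/+ (log2 fold change -1.01 ± 0.14 SE, adjusted p = 0.0005). Another member of the RGS family rose: Rgs17 had 5.604, 11.2, 2.797 and 5.32 CPM in wild type and 29.3, 25.8, 21.1 and 27.6 CPM in C1041G/+. The wild-type values were uneven, and all lay below the mutant values (log2 fold change 2.05 ± 0.31 SE, adjusted p = 0.00257). These were the 2 calls among 15 RGS genes. The promoter of Rgs17 is shown as an example of a gene that rose with an AP-1 motif, in capitals 122 bases before the start (GRCm38.p6, minus strand, chr10:5922401-5922650).
Rgs17: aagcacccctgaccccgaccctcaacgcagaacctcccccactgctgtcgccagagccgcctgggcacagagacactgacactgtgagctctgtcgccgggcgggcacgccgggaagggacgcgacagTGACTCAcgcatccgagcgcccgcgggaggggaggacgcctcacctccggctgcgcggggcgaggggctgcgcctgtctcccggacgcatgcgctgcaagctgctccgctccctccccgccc

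Ion channel lists held single calls. Of 42 potassium channel genes other than inward rectifiers 1 rose and 1 fell (4.76% called). Kcnc4, a voltage-gated channel, fell from 39.3 ± 8.402 to 16.6 ± 1.04 CPM (SD, n = 4), a log2 fold change of -1.24 (adjusted p = 0.00025). Kcnf1, a modifier subunit, rose from 1.15 ± 0.531 to 4.29 ± 1.67 CPM (adjusted p = 0.0182), a call lost without library 2, 5 or 7 (adjusted p up to 0.0742). Among 43 calcium channel, pump and release genes the 1 call was Cacna2d3, an auxiliary subunit of voltage-gated calcium channels, with 4.03, 6.303, 3.73 and 5.38 CPM in wild type and 1.24, 1.53, 1.23 and 1.32 CPM in C1041G/+. It fell without overlap (log2 fold change -1.87 ± 0.24 SE, adjusted p = 0.00035). Slc24a4, an exchanger of sodium for calcium and potassium, fell from 5.199 ± 0.751 to 1.94 ± 0.447 CPM (adjusted p = 0.00357).

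In the insulin-like growth factor system 2 of 21 genes rose and 1 fell (14.3% called), with a median of 0.16. Igfbp2, which binds IGFs outside the cell, had 12.6, 12.1, 17.2 and 10.7 CPM in wild type and 71.3, 53.6, 63.8 and 49.02 CPM in C1041G/+. The lowest mutant value was far above the highest wild-type value (log2 fold change 2.18 ± 0.23 SE, adjusted p = 7.7e-05). Pappa, a protease that frees IGFs by cleaving their binding proteins, rose from 2.05 ± 0.202 to 5.65 ± 1.13 CPM (SD, n = 4), a log2 fold change of 1.46 (adjusted p = 0.0003). The ligand Igf1 fell, from 77.5, 58.7, 42.9 and 68.5 CPM in wild type to 36.7, 31.8, 36.8 and 30.4 CPM in C1041G/+. Its groups did not overlap, with the smallest gap at wild-type library 5 (log2 fold change -0.87 ± 0.16 SE, adjusted p = 0.0105).

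Among 49 PDGF, FGF and VEGF pathway genes 3 rose, Esm1 among them, and 2 fell (10.2% called, median 0.12). The receptor Fgfr2 rose from 127 ± 18.8 to 193 ± 17.4 CPM and the ligand Pdgfc from 41.3 ± 4.36 to 57.2 ± 2.29 CPM (SD, n = 4; adjusted p = 0.00794 and 0.00939). Fgfrl1, an FGF receptor without a kinase domain, fell from 113 ± 8.87 to 80.6 ± 3.12 CPM (adjusted p = 0.00501). Angptl7, a secreted angiopoietin-like protein, had 46.4, 52.3, 18.7 and 34.002 CPM in wild type and 11.6, 5.44, 5.93 and 6.48 CPM in C1041G/+. The wild-type values ranged widely and all lay above the mutant ones (log2 fold change -2.36 ± 0.30 SE, adjusted p = 0.00064). Of 23 Notch pathway genes 1 was called, Notch3, a receptor of vascular smooth muscle, with 52.8, 61.6, 51.7 and 46.02 CPM in wild type and 97.4, 90.05, 97.2 and 104 CPM in C1041G/+. It rose without overlap (log2 fold change 0.87 ± 0.13 SE, adjusted p = 0.00153).

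Wnt ligands, receptors and antagonists held 2 rises and 2 falls among 44 (9.09% called). Wif1, a secreted inhibitor that binds Wnt proteins, had 45.2, 46.3, 47.2 and 44.7 CPM in wild type and 13.9, 15.5, 18.1 and 22.6 CPM in C1041G/+. The wild-type values were nearly equal and all above the mutant ones (log2 fold change -1.38 ± 0.24 SE, adjusted p = 0.00819). The ligand Wnt5b fell from 8.31 ± 2.11 to 3.704 ± 0.712 CPM (SD, n = 4; adjusted p = 0.00580). Fzd1, a Wnt receptor, rose from 163 ± 4.77 to 229 ± 10.02 CPM (adjusted p = 0.0172), a call lost without library 3, 4 or 6 (adjusted p up to 0.0562). Wnt2 rose from 5.73 ± 2.17 to 13.97 ± 4.48 CPM (adjusted p = 0.0476), lost without any 1 library but library 1 (adjusted p up to 0.157).

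Guidance cues, which steer axons and vessels, held 2 rises and 1 fall among 62 (4.84% called). Sema3e, a secreted semaphorin that acts on plexin D1 of endothelium, had 6.15, 6.91, 5.24 and 6.27 CPM in wild type and 33.1, 25.5, 25.8 and 23.4 CPM in C1041G/+. The groups lay far apart (log2 fold change 2.13 ± 0.15 SE, adjusted p = 4.9e-07). Slit3 rose from 249 ± 39.1 to 411 ± 25.5 CPM and Sema3c fell from 334 ± 15.97 to 241 ± 11.7 CPM (SD, n = 4; adjusted p = 0.00546 and 0.00598).

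Enzymes of O-linked glycans and sialic acid had 1 rise and 1 fall among 38 tested (5.26% called). Galnt6, which adds the first sugar of mucin-type chains, had 11.04, 8.895, 23.5 and 12.8 CPM in wild type and 2.36, 1.25, 2.51 and 2.05 CPM in C1041G/+. Gcnt4, which branches such chains, had 1.25, 1.17, 1.34 and 1.42 CPM in wild type and 8.095, 5.1003, 5.93 and 7.31 CPM in C1041G/+. They moved in opposite directions without overlap, by -2.77 for Galnt6 and 2.35 for Gcnt4 on the log2 scale (adjusted p = 6.2e-05 and 3.2e-06).

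Vasoactive receptors and their ligands held 4 rises and 3 falls among 72 (9.72% called), with a median of 0.02. P2rx1, the ATP-gated channel through which sympathetic nerves contract arteries, had 52.7, 46.8, 64.7 and 47.1 CPM in wild type and 118, 132, 89.1 and 93.99 CPM in C1041G/+. It rose without overlap (log2 fold change 1.04 ± 0.19 SE, adjusted p = 0.00877). Gpr176, an orphan receptor, rose from 0.633 ± 0.0804 to 2.76 ± 0.708 CPM (SD, n = 4; adjusted p = 0.00583). Ptgir, the prostacyclin receptor, rose from 4.51 ± 1.26 to 9.02 ± 2.07 CPM (adjusted p = 0.0262), a call lost without library 2, 3, 4 or 5 (adjusted p up to 0.0866). Another prostanoid receptor fell: Ptgfr, the receptor for prostaglandin F, had 17.7, 17.3, 7.75 and 13.4 CPM in wild type and 6.24, 4.53, 4.38 and 4.58 CPM in C1041G/+ (log2 fold change -1.51 ± 0.27 SE, adjusted p = 0.00725). Adra2c, an adrenergic receptor, fell from 4.55 ± 0.149 to 2.44 ± 0.479 CPM (adjusted p = 0.0258), lost without library 1, 2, 3, 7 or 8 (adjusted p up to 0.0970). Ffar4, a fatty acid receptor, fell from 1.24 ± 0.659 to 0.291 ± 0.114 CPM (adjusted p = 0.0378), lost without any 1 library but library 5 (adjusted p up to 0.131).

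Genes of the renin-angiotensin system, whose peptide angiotensin II constricts arteries, held 2 rises and 1 fall among 14 tested (21.4% called). Enpep, an aminopeptidase that shortens angiotensin II, had 30.1, 26.9, 40.5 and 26.1 CPM in wild type and 53.8, 52.5, 50.6 and 62.5 CPM in C1041G/+. It rose without overlap (log2 fold change 0.83 ± 0.14 SE, adjusted p = 0.00357). Ace, the enzyme that makes angiotensin II, had 876, 713, 684 and 621 CPM in wild type and 545, 490.0, 559 and 587 CPM in C1041G/+. A small gap separated the groups (log2 fold change -0.41 ± 0.10 SE, adjusted p = 0.0454), and the call was lost without any 1 library but library 7 (adjusted p up to 0.135). Agtr1b, a type 1 angiotensin receptor, rose from 1.22 ± 0.314 to 2.92 ± 0.853 CPM (adjusted p = 0.0495), lost without any 1 library but library 2 (adjusted p up to 0.160). Agtr1a, the other type 1 receptor, had 1.71 ± 0.318 and 2.04 ± 0.584 CPM and was not called (adjusted p = 0.836). Agt, angiotensinogen, and Agtr2, the type 2 receptor, had too few counts for the fit. Agt had 7 counts over the wild-type libraries and 51 over the mutant ones, or 0.0544, 0.102, 0.117 and 0.105 CPM (0.0945 ± 0.0275, SD, n = 4) against 0.450, 0.340, 1.49 and 0.439 CPM (0.681 ± 0.545). Every mutant library was above every wild-type one (exact permutation test, 2-sided, unadjusted p = 0.0286, the smallest that 4 against 4 can give). Among the genes tested in edgeR, 1141 (7.29%) had groups without overlap, in either direction. Library 6 was the highest, and without it the mutant mean was 0.409 CPM. Agtr2 had 18 and 12 counts (exact permutation test, unadjusted p = 0.514). None of 19 genes known to respond to angiotensin II was called, with a median of 0.28. Of these, 14 were higher and 5 lower. Their mean log2 CPM ran from 4.97 to 5.45 in wild type and from 5.49 to 5.62 in C1041G/+, without overlap. The list as a whole was not tested.

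**Figure D3:**
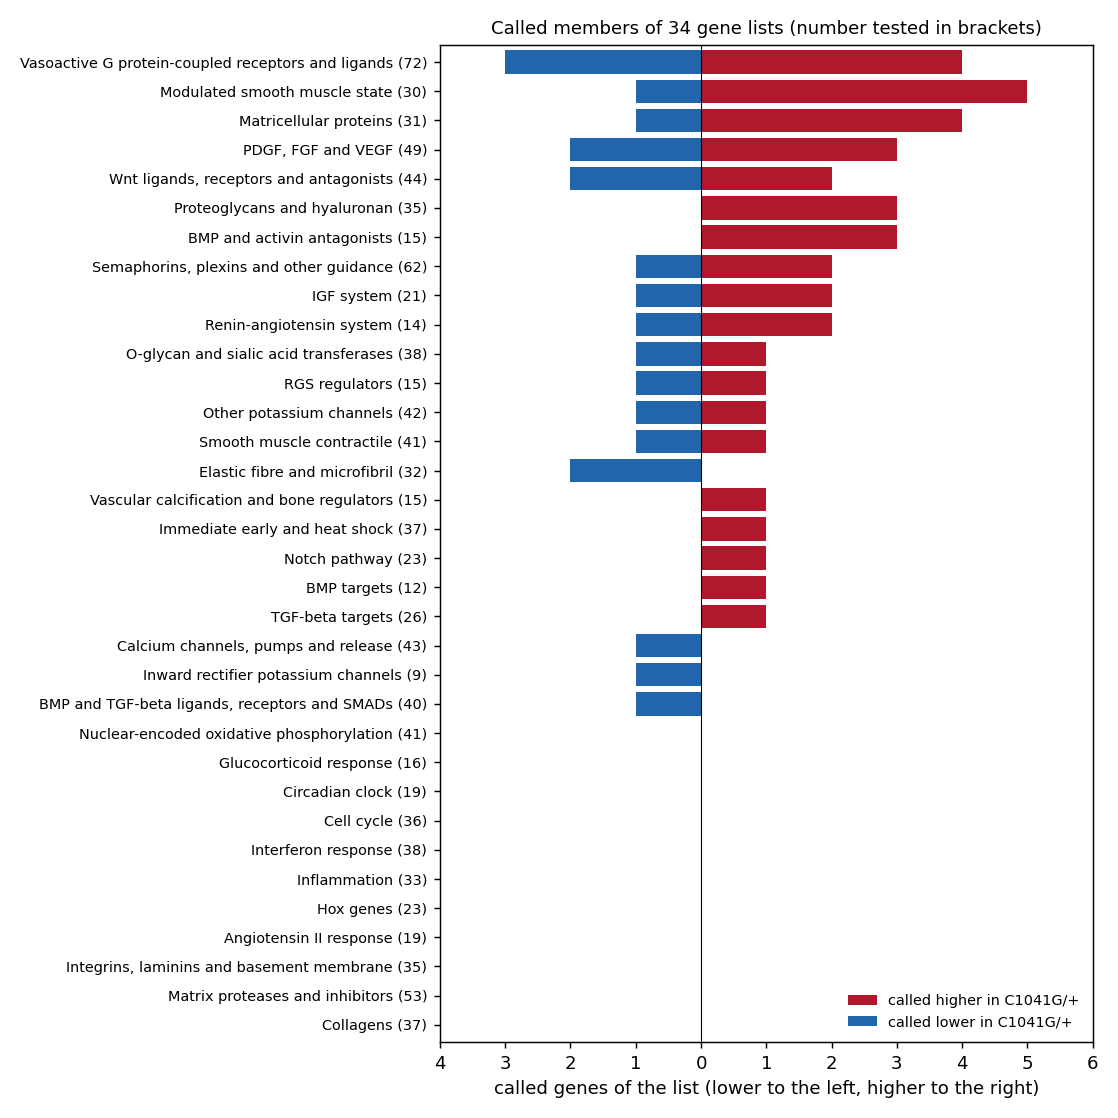
For each of 34 gene lists the bars give how many tested members were called higher (right, red) or lower (left, blue) in C1041G/+ descending aorta, with the number tested in brackets. Vasoactive receptors had the most calls, 4 higher and 3 lower of 72, followed by the modulated smooth muscle state, 5 higher and 1 lower of 30, beside 1.21% of all tested genes. The lists were chosen with earlier results of these data known.

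The other large rises belonged to genes of many kinds. Tmem215, Olfr558, Ak5 and Gpr39 rose from 0.865 ± 0.229 to 5.33 ± 0.985, 0.289 ± 0.183 to 2.09 ± 0.442, 0.764 ± 0.113 to 3.03 ± 0.712 and 0.739 ± 0.356 to 2.72 ± 0.736 CPM (SD, n = 4), with adjusted p of 0.00018, 0.0113, 0.00191 and 0.00354. Agap2, Ildr2 and Armc3 rose by 1.88, 1.39 and 1.63 on the log2 scale. Itgax, an integrin of myeloid cells, rose from 0.782 ± 0.248 to 2.05 ± 0.297 CPM (adjusted p = 0.00857, and 0.0569 with the replicate number as a block in limma voom). Slc26a4, an anion exchanger, rose by 1.53 and was lost without library 3 or 6 (adjusted p up to 0.0699). Foxd2, a transcription factor, rose by 1.65 and was lost without library 1, 3, 4, 5, 6 or 8 (adjusted p up to 0.124). Sphkap rose by 1.95 and was lost without library 2, 3, 5, 7 or 8 (adjusted p up to 0.134) and with the replicate number as a block (adjusted p = 0.0563, limma voom). Thsd7b rose by 1.87 and was lost without any 1 library but library 8 (adjusted p up to 0.145) and with the replicate number as a block (adjusted p = 0.118, limma voom). Sntg1 was chosen after its values were seen: it had 0 counts over the wild-type libraries and 21 over the mutant ones, at least 6.95-fold higher with the wild-type group set to a floor of 3 counts in all.

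Among the other falls were Frmpd4, from 1.48 ± 0.449 to 0.143 ± 0.104 CPM, Vtcn1, an inhibitory ligand of T cells, from 8.87 ± 4.56 to 1.81 ± 0.631 CPM, Faim2, an inhibitor of apoptosis, from 3.53 ± 0.972 to 0.969 ± 0.149 CPM, and Ppp1r1b, a phosphatase inhibitor, from 8.52 ± 1.71 to 2.62 ± 0.692 CPM (SD, n = 4). Their adjusted p were 0.00583, 0.00135, 0.00092 and 0.00357. Lrrc75b, Cxxc4 and Slc35g1 had log2 fold changes of -1.68, -1.43 and -1.35. Lmntd1 fell from 2.1995 ± 0.254 to 0.199 ± 0.131 CPM (adjusted p = 0.0189), lost without library 2, 4 or 8 (adjusted p up to 0.0736) and with the replicate number as a block (adjusted p = 0.0678, limma voom). Rnf207 fell from 1.41 ± 0.237 to 0.570 ± 0.108 CPM (adjusted p = 0.0311), lost without library 2, 3, 4, 5, 6 or 7 (adjusted p up to 0.0970) and with the replicate number as a block (adjusted p = 0.0579, limma voom).

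Lists of general cell states gave no calls in edgeR. None of 33 inflammation, 38 interferon response, 36 cell cycle, 23 Hox, 19 circadian or 16 glucocorticoid response genes was called, with medians of 0.23, 0.20, 0.19, 0.01, 0.03 and -0.21. In the same order, 19, 32, 29, 12, 12 and 5 genes were higher. For each of these lists the mean log2 CPM of the genotypes overlapped. The lists as wholes were not tested. Of 41 nuclear genes of oxidative phosphorylation none was called, and 40 had a log2 fold change below 0, with a median of -0.11 and a range from -0.32 to 0.01. Their mean log2 CPM ran from 6.63 to 6.75 in wild type and from 6.53 to 6.60 in C1041G/+, without overlap. This list as a whole was not tested either. Of 27 tested genes of the mitochondrial chromosome 1 was called, a fall (3.70%, beside 1.21% of all tested genes). Tnfrsf11b was the 1 call among 15 regulators of calcification and bone.

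Markers of 16 cell types described the makeup of each library by a score, the mean log2 CPM of a list. The smooth muscle score was 9.92 to 10.21 in wild type and 9.90 to 10.19 in C1041G/+, and the endothelial score 6.08 to 6.43 and 6.03 to 6.16. A called gene was found in 3 marker lists: Des of smooth muscle, Acan of cartilage and Gpm6a of mesothelium. Gpm6a rose from 4.68 ± 1.59 to 8.12 ± 1.17 CPM (SD, n = 4; adjusted p = 0.0274), a call lost without library 1, 2, 5, 6, 7 or 8 (adjusted p up to 0.0970). The mesothelial score was 0.25 to 0.98 in wild type and 0.80 to 1.70 in C1041G/+. All 14 macrophage markers were higher and none was called (median 0.37), with scores of 3.85 to 5.10 and 4.99 to 5.20, and wild-type library 5 had the lowest score. Outside this list, Itgax and Lgals3, described above, were called higher. They were set beside the list after the values were seen, and Lgals3 is a member of the modulated smooth muscle list. Of the 19 alternative analyses, 2 ended the call of Itgax and 4 that of Lgals3. Mpeg1, a macrophage gene chosen after its values were seen and not counted among the named genes, was also called higher. It rose 1.95-fold and kept its call in all 19 alternative analyses. All 7 red cell markers were lower and none was called (median -1.26, scores 4.11 to 6.14 and 2.997 to 5.37). Brown adipocyte markers had a median of -0.50 and white adipocyte markers of -0.20. The cartilage score was 1.06 to 1.32 in wild type and 0.73 to 1.05 in C1041G/+, lower in every mutant library although its member Acan rose. With the brown or white adipocyte score as a covariate 176 or 181 genes were called. The part of the other cell types was not tested.

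**Figure D4:**
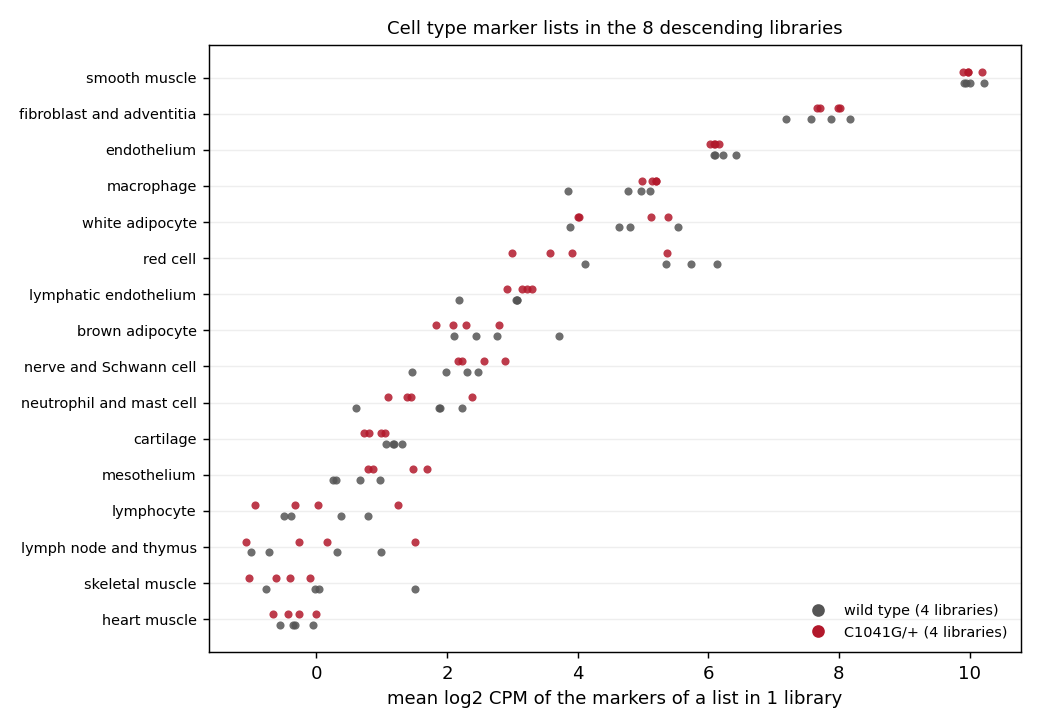
Each point is the mean log2 CPM of the markers of 1 cell type in 1 of the 8 descending libraries, with wild type in grey and C1041G/+ in red. Smooth muscle scores lie near 10 in both genotypes, the red cell scores of 3 mutant libraries lie below all wild-type ones, and the lowest macrophage score is that of wild-type library 5, at 3.85.

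In the ascending segment 342 genes (2.19%) were called between the same genotypes. The segments shared 83 calls, 43.9% of the descending and 24.3% of the ascending ones, all in the same direction. Of the 189 genes called in descending aorta, 177 (93.7%) had the same sign in ascending aorta and 12 the opposite sign, where 64.4% of all tested genes had the same sign. Same-numbered ascending and descending libraries deviated together, so the segments are not independent samples. For 154 of the 189 the change was larger in descending aorta, by which these genes had been chosen. Acan changed by 1.24 in descending and 1.24 in ascending aorta, and Igfbp2 by 2.18 and 2.77. Mylk2 and Rgs5 were also called lower in both segments, with -1.59 and -1.80 for Mylk2 and -1.01 and -1.34 for Rgs5.

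After Kcnj15, the genes with the smallest interaction p among the descending calls were Gm49643 (adjusted p = 0.0506) and Sema3e, which changed by 2.13 in descending and 0.89 in ascending aorta (adjusted p = 0.0849). Tnr had 1.74 and -1.44 (0.150), Tnnt1 -1.48 and 0.01 (0.156), and Chrdl1 1.12 and 0.27 (0.217). Agap2 had 1.88 and 0.59 (0.319) and Sytl2 1.33 and -0.03 (0.321). Cyp4b1, a fatty acid hydroxylase, had 0.76 and -0.38 (0.199), and its descending call was lost without library 1, 4, 5, 6, 7 or 8 (adjusted p up to 0.0700). Tril, a modulator of Toll-like receptors, had 0.64 and -0.38 (0.217), lost without any 1 library but library 7 (adjusted p up to 0.122). Of the 189 genes, 69 (36.5%) had an unadjusted interaction p under 0.05, against 5.08% of all tested genes, and 1 passed after adjustment in edgeR. The 189 were chosen by their descending change, which enters the interaction, so their larger share is not a result about them.

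**Figure D5:**
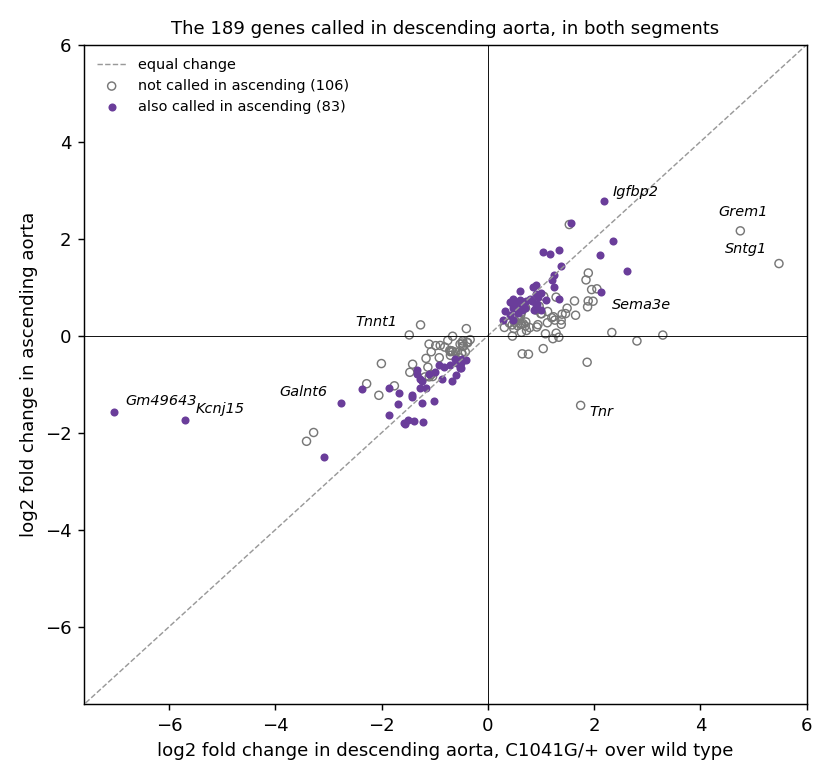
Log2 fold change of C1041G/+ over wild type in the descending (horizontal) and ascending (vertical) aorta for the 189 genes called in the descending segment, filled for the 83 also called in ascending and open for the other 106. Most points lie at lower left and upper right, and Kcnj15, at -5.71 and -1.74, lies far from the dashed line of equal change.

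Fbn1 lies on chromosome 2, and of 276 tested genes that start within 20 Mb of it 3 were called (1.09%), against 1.63% on the rest of that chromosome. These were Grem1 and Gpr176, which rose, and BB218582, which fell from 2.43 ± 0.579 to 1.102 ± 0.196 CPM (SD, n = 4; adjusted p = 0.0326), lost without library 2, 3, 4, 5, 6 or 7 (adjusted p up to 0.113) and with the replicate number as a block (adjusted p = 0.0771, limma voom). The part of strain differences around the allele was not tested.

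Short motifs were counted on both strands in the 250 bases before the RefSeq start of each gene. A promoter was matched for 11471 of the 15645 tested genes, 82 of the 106 called higher and 62 of the 83 called lower. The AP-1 motif TGANTCA was held by 12.2% of promoters of genes called higher, 11.3% of those called lower and 5.81% of all tested. A CArG box was held by 6 of the 82 called higher (7.32%), by 0 of the 62 called lower and by 1.47% of all tested. The TEAD core CATTCC was in 19.5%, 9.68% and 13.2%, TATAAA in 15.9%, 14.5% and 8.42%, and the E-box CACGTG in 7.32%, 9.68% and 9.47%. The cAMP response element TGACGTCA was in 1.22%, 0 and 2.86%, and the SMAD palindrome GTCTAGAC in 0, 1.61% and 0.244%. Overlaps between motifs were not removed, and a match of letters is a description, not a bound site.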

How the data were processed

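RNA was extracted with a fibrous tissue kit, and 1 µg per library went into NEBNext Ultra libraries, per the labels' protocols. Per the submitters' processing notes, fastp served for read trimming and STAR 2.6.1d for alignment, with mm10 as the build. Which tool, strand setting and annotation made the counts is not given in the sources used here. The authors deposited whole-number counts per gene, not normalized.

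Of 54532 gene IDs, 54495 were named from GENCODE M21. The 16 untreated libraries were fitted together with edgeR 4.0.16 in R 4.3.3 (TMM, filterByExpr, robust quasi-likelihood test, 12 residual degrees of freedom), with Benjamini-Hochberg adjustment over 15645 genes. Adjusted p without another tool's name are edgeR's. Libraries treated with antisense oligonucleotides were not analysed here. Same-numbered ascending and descending libraries had correlated deviations (r 0.162 to 0.305 in 8 pairs, mean -0.0331 for other pairs). Of the 8 descending libraries, 7 correlated best with the ascending library of their own number. The numbers were therefore treated as pairs and served as a block in limma 3.58.1 voom (correlation 0.268). What same-numbered libraries share was not tested. DESeq2 1.42.0, a fit of the descending libraries alone, other scalings, other filters, adipocyte scores as covariates and leaving out each library were alternatives. Genes named are a few chosen for the question, the 25 largest rises and 25 largest falls with at least 1 CPM in a group and no overlap, up to 6 called members of each of 34 pathway and 16 marker lists with their most abundant uncalled ones, the 10 with the smallest interaction p, and calls near Fbn1. Members and lists were chosen with earlier results of these data known. Promoters are RefSeq's (GRCm38.p6).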

Additional observations from a re-analysis of the deposited data

Results flagged for a closer look

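A library that stood apart from the other 3 of its group by Dixon's test was found in 10 of 230 groups of 4, and chance alone marks about 1 in 20. In wild type these were Casq1 in library 5 at 190.6 CPM, against 118 to 128 CPM in the others, Sema3c in library 7 at 309.9 CPM, against 339.8 to 343 CPM, Bgn in library 3 at 3643 CPM, and Fbn2 in library 3 at 0.0508 CPM, against 0. In C1041G/+ they were Angptl7, Ptgfr and Cyp4b1 in library 2, at 11.6, 6.24 and 17.1 CPM, Itgax and Rnf207 in library 8, at 1.61 and 0.731 CPM, and Hoxb6 in library 4, at 35.0 CPM.

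The change of Kcnj15 differed between the segments, with an interaction of -3.97 on the log2 scale (adjusted p = 8.2e-07, edgeR). It stayed between -4.12 and -3.78 when each descending library was left out. In limma voom it was -3.89 with the replicate number as a block and without it. The adjusted p was larger there, at 0.00199 with the block and 0.00512 without.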

How the results depend on the processing

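DESeq2 called 414 genes, 252 higher, 162 lower and 155 with at least 2-fold change, and 38 for the interaction, and it called all 189 genes that edgeR called. Leaving out each descending library gave 128 to 170 calls, with 68 to 104 higher and the lowest number without library 6, and 1 to 4 interaction calls. Without the filter on low counts the interaction had 6 calls. With the replicate block, limma voom called 191 genes, 107 higher and 84 lower, and 5 for the interaction, and it kept 166 of the 189; without the block it called 174. Among named genes the block ended a call only where that is stated beside the gene. A fit of the 8 descending libraries alone called 162 genes, 90 higher, 72 lower and 75 with at least 2-fold change. It ended the call of 20 named genes, at adjusted p of 0.0517 to 0.154: Ace, Adra2c, Agtr1b, BB218582, Bex3, Bmpr1b, Des, Esm1, Ffar4, Foxd2, Gpm6a, Itgax, Ptgir, Rnf207, Sphkap, Tceal9, Tnmd, Tril, Wnt2 and Zcchc18. The brown adipocyte score as a covariate ended 18 (adjusted p up to 0.142), among them Ccn5, Cd44, Cyp4b1, Lgals3, Sh3bgr, Slc26a4, Thsd7b and Tnr, which the descending libraries alone kept. The others ended fewer: no filter on low counts 9 (up to 0.144), voom without the block 8 (voom's adjusted p up to 0.111), the white adipocyte score 5 (up to 0.0638) and upper-quartile scaling 2 (up to 0.0512). Of the 189 genes, 94 were called in all 19 alternatives that gave them a value and 98 in every leave-out, and none changed sign in those alternatives. Of the 93 named genes that were called, 34 lost the call in at least 1 alternative; the cause was not tested. Depth limits genes near or below 1 CPM, such as Agt with 7 and 51 counts.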

Other observations

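On the X chromosome, a stretch whose tested genes start between 133.9 and 137.0 Mb (GRCm38) held 7 falls and no rise among 41 tested genes (17.1%), against 3 rises and 4 falls among 476 (1.47%) on the rest of the chromosome. The stretch was chosen after its values were seen. The 7 genes were Tnmd, Srpx2, Tmem35a, Tceal6, Tceal9, Bex3 and Zcchc18, and 26 of the 41 (63.4%) had a log2 fold change below 0, against 55.3% elsewhere on X. Tceal6, of a family of small transcription elongation factor-like proteins, had 22.9, 24.8, 20.9 and 23.0 CPM in wild type and 11.1, 11.8, 9.61 and 9.99 CPM in C1041G/+, without overlap (log2 fold change -1.11 ± 0.12 SE, adjusted p = 5.6e-05). Tmem35a fell from 10.8 ± 1.10 to 3.61 ± 1.43 CPM (SD, n = 4; adjusted p = 0.00064). Tnmd, tenomodulin, a tendon glycoprotein, fell from 4.81 ± 1.597 to 1.72 ± 0.827 CPM (adjusted p = 0.0297), a call lost without library 1, 2, 3 or 7 (adjusted p up to 0.106). Bex3 fell by 0.48 on the log2 scale and was lost without library 2, 5, 6 or 7 (adjusted p up to 0.0939). Tceal9 fell by 0.34 and was lost without library 6 or 7 (adjusted p up to 0.0673). Zcchc18 fell by 1.19 and was lost without library 1, 2, 4 or 7 (adjusted p up to 0.0864). Srpx2 fell by 0.68 and was lost without library 1, 2 or 8 (adjusted p up to 0.0729) and with the replicate number as a block (adjusted p = 0.0893, limma voom).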
